A study of Mus musculus with 14 samples.

Results

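Interferon response genes are switched on when a cell senses viral nucleic acid or receives an interferon signal. The 37 genes described here were given as a list of symbols, and all 37 were found by symbol in both count tables of the series, among 23418 distinct symbols. No measured value entered the rule for membership, but the list was chosen with earlier results of these data known. RNA-seq was done on 14 mouse libraries from a study of p62, the autophagy receptor encoded by Sqstm1, in hepatic stellate cells, fibrosis and liver cancer. Livers lacking p62 (p62KO) and wild-type (WT) livers gave 3 libraries each, and all 6 mice had received diethylnitrosamine (DEN), a chemical that causes liver tumours, together with a high-fat diet (HFD), so no untreated liver serves as a baseline. Their ages are not given in the sources used here. Another 8 libraries came from cultured hepatic stellate cells (HSC), the pericytes of the liver that turn into matrix-producing myofibroblasts. These cells were p62KO or WT, had been immortalized with an SV40 antigen, which all 4 cell groups share, and were cultured with calcipotriol, a synthetic agonist of the vitamin D receptor, or with vehicle. The 4 groups were p62KO with vehicle, WT with vehicle, p62KO with calcipotriol and WT with calcipotriol, with 2 libraries each. The number of cell lines behind each genotype and the dose and duration of calcipotriol are not stated either, so a difference between genotypes in culture cannot be told apart from a difference between the lines. Nothing said that replicates came from separate cultures, and p-values then measure only the spread between these libraries.

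Type I interferons bind a receptor whose kinases phosphorylate STAT proteins, among them STAT2. These join IRF9, and the complex binds a DNA element called the interferon-stimulated response element (ISRE). Interferon gamma acts through a STAT dimer on another element, the gamma-activated site (GAS). The products of the induced genes sense foreign RNA, block entry, degrade RNA, tag proteins with the ubiquitin-like ISG15 or attack the membranes around intracellular pathogens, and many are expressed at a low level in resting cells.

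The members were searched for both elements in RefSeq windows (GRCm38.p6) that run from 250 bases before to 50 after each gene's start. Windows were found for 28 of the 37 members, and Mx2, Iigp1, Mx1, Zbp1, Usp18, Rtp4, Oas2, Parp14 and Dhx58 had none. The core of the ISRE was taken as 2 copies of the letters GAAA with any 2 bases between them, read on both strands. It occurred in 17 of the 28 members, which is 60.7%, against 3.99% of all 27025 genes with a window. The letters TTCNNNGAA, which stand for the GAS and read the same on both strands, occurred in 9 of the 28, which is 32.1%, against 9.55% of all genes. A match is a description of letters, not a bound site. Stretches of 6 promoters are shown because they let the shared element be seen in genes that passed a test below (Ifit1, Ifit3, Irgm1 and Rsad2) and in Isg15 and Gbp3, which passed no test. Capitals mark the ISRE letters, with overlapping matches run together, and each stretch reads 5′ to 3′ on the gene's own strand and lies before its RefSeq start.
Ifit1, chr19:34640755-34640843, plus strand: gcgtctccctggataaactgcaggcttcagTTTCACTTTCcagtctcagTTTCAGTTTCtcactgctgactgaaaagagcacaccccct
Ifit3, chr19:34583343-34583446, plus strand: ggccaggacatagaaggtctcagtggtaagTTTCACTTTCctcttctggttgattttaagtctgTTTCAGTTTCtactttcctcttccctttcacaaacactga
Irgm1, chr11:48871421-48871480, minus strand: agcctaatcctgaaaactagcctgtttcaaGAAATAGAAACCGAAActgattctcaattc
Rsad2, chr12:26456533-26456602, minus strand: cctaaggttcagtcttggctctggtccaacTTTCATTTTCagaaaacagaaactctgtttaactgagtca
Isg15, chr4:156200845-156200926, minus strand: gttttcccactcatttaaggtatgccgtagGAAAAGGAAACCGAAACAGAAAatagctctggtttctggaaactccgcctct
Gbp3, chr3:142559969-142560043, plus strand: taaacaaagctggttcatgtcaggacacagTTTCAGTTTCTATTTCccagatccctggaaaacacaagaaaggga
The windows of Ifit2, Oasl2, Xaf1 and Trim25 did not hold these letters, and the match of Ifih1 lay after its start. These 5 genes also passed a test below.

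Total counts ranged from 17506607 to 20040583 per liver library and from 15207117 to 29079258 per stellate cell library. Levels are given as CPM, the count scaled to a library total of 1000000. Differences are log2 fold changes, p62KO over WT or calcipotriol over vehicle, with their standard error (SE). Each adjusted p is from edgeR's quasi-likelihood test with Benjamini-Hochberg adjustment over all genes tested, 12851 in liver and 12681 in stellate cells, with a threshold of 0.05. Sqstm1 was at 1.44 to 2.12 CPM in p62KO livers and 448 to 583 CPM in WT livers, and at 0.211 to 0.835 CPM in p62KO cells and 316 to 340 CPM in WT cells, as the labels say. All 37 members passed the filter on low counts in liver and 36 in stellate cells. Mx1, an antiviral dynamin-like GTPase, did not pass there, with 5 and 2 counts in the p62KO vehicle libraries, 0 and 1 in WT vehicle and 0 in the other 4 libraries. The cells expressed the fibroblast genes Col1a1 (at least 2256 CPM in every library), Acta2 and Pdgfrb. Lrat, which marks resting stellate cells, was at 0 and Des and Reln were under 1 CPM in every library. All 8 hepatocyte markers and all 11 T and NK cell markers were under 1 CPM in every stellate cell library, as were Ptprc, Cd52 and Laptm5 among 5 general leukocyte markers. In liver every member is measured in bulk tissue, where fewer cells of a type and less RNA per cell cannot be told apart.

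Per kilobase of exon, the most abundant member in all 6 groups was Ifitm3, which blocks virus entry at endosomes, followed by Bst2, which tethers budding virus to the cell surface. Ifitm3 averaged 350.0 CPM per kb in p62KO vehicle cells, 246 in WT vehicle cells, 356 in p62KO calcipotriol cells and 254 in WT calcipotriol cells, and 455 in p62KO livers and 453 in WT livers. Bst2 averaged 90.0 CPM per kb in p62KO vehicle cells, 96.4 in WT vehicle cells, 118 in p62KO calcipotriol cells and 98.5 in WT calcipotriol cells, and 209 in p62KO livers and 230.0 in WT livers. Isg15 was the third in every cell group, at 44.8 to 56.5 CPM per kb. In liver the third was Iigp1, a GTPase that attacks parasite-containing vacuoles, at 74.3 CPM per kb in p62KO livers and 66.2 in WT livers. Mx1 was the lowest member in all 4 cell groups and in p62KO livers, where Oas3 was the second lowest, while Oas3 was the lowest in WT livers.

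In stellate cells treated with calcipotriol, 8 of the 36 members tested were lower in p62KO than in WT cells and none was higher. The 8 were Irgm1, Ifih1, Ifit2, Rsad2, Oasl2, Parp14, Ifit3 and Iigp1, with log2 fold changes from -1.37 to -3.53. Of all genes tested, 19.8% passed in this comparison, 9.53% as lower and 10.3% as higher. The median log2 fold change of the 36 members was -1.12, beside -0.00619 for all genes. Every p62KO library was below every WT library for 27 of the 36, against 32.6% of all genes, and above for 2, Irf1 and Ifi35, against 32.4%. At an unadjusted p under 0.05 there were 16 members, against 37.8% of all genes. The count of 8 became 1 without WT calcipotriol replicate 1 and 0 without WT calcipotriol replicate 2, fits in which 2.65% and 2.08% of all genes passed. It was 3 without p62KO calcipotriol replicate 2, beside 14.9% of all genes, and 7 without p62KO calcipotriol replicate 1, beside 46.2%. Without WT vehicle replicate 1 or 2 it was 5, beside 8.59% and 8.88% of all genes, and without p62KO vehicle replicate 1 or 2 it was 22, beside 22.2% and 22%.

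With vehicle, 3 of the 36 members were lower in p62KO than in WT cells and none was higher. These were Irgm1, Ifih1 and Trim25. Of all genes, 12.9% passed, 5.94% as lower and 6.95% as higher, and the median was -0.08 for the members and 0.0321 for all genes. Every p62KO library was below every WT library for 6 members, against 34.2% of all genes, and above for 3, against 34.6%. The count was 14 without p62KO vehicle replicate 1, all lower, beside 6.51% of all genes, and 6 without p62KO vehicle replicate 2, of which 5 were higher, beside 13%. It was 0 without WT vehicle replicate 1 or 2, beside 1.85% and 1.81% of all genes.

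These counts rest on 2 p62KO vehicle libraries that stood on opposite sides of WT. Replicate 1 was above replicate 2 in all 36 members tested, against 50.4% of all genes, by a median log2 difference of 2.1 and a range of 0.19 to 3.46. For 24 of the 36, replicate 1 was above and replicate 2 below both WT vehicle libraries, which held for 8.71% of all genes. Set against the mean of the WT vehicle libraries, the members' median was 0.6 in p62KO vehicle replicate 1 and -1.51 in replicate 2, with 30 and 3 members above 0. It was -1.01 and -1.34 in the p62KO calcipotriol libraries and -0.06 and -0.02 in the WT calcipotriol libraries. The low p62KO vehicle library, replicate 2, and both p62KO calcipotriol libraries were below all 4 WT libraries for 26 of 36 members, a pattern shown by 23.6% of all genes. The exceptions were Irf7, Irf1, Dhx58, Isg15, Oasl1, Bst2, Ifitm3, Ifi44, Ifi35 and Zbp1. Replicate 2 was taken because the members were low in it, which in part fixes their count of 26 but not the share of all genes. The 2 values are therefore a description and not a test.

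**Figure D1:**
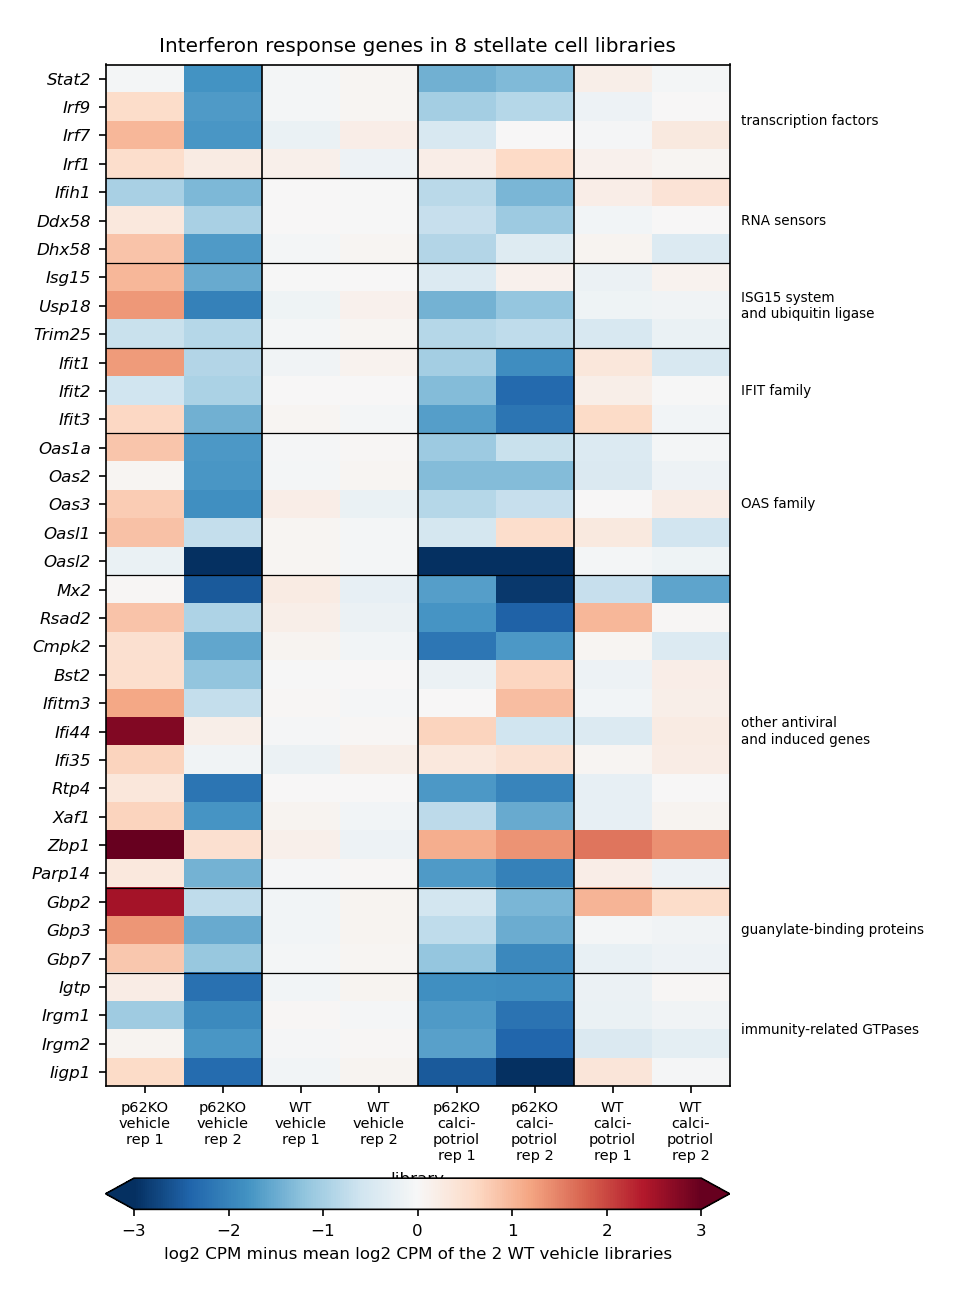
Heat map of the 36 members tested in stellate cells (down the page, by role) in 8 libraries (across), as log2 CPM minus the mean log2 CPM of the 2 WT vehicle libraries; red is above and blue below, and values beyond 3 are drawn at the end of the scale. Most rows are red or pale in p62KO vehicle replicate 1 and blue in p62KO vehicle replicate 2 and in both p62KO calcipotriol libraries, and the WT libraries differ little.

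Inflammatory NF-kB target genes were also high in p62KO vehicle replicate 1. Summed over 22 such genes, the level was 5057 and 2200 CPM in the p62KO vehicle libraries, with WT vehicle at 2543 and 2534 CPM. The sum was 2233 and 2324 CPM in p62KO calcipotriol cells, against 2374 and 2379 CPM in WT calcipotriol cells. Csf1 and Ptgs2 were large parts of these sums and went in opposite directions. With vehicle Csf1 was at 1550 and 1216 CPM in p62KO cells, against 938 and 927 CPM in WT cells. Ptgs2 was at 954 and 508 CPM in p62KO vehicle cells, against 1136 and 1147 CPM in WT vehicle cells. With calcipotriol Ptgs2 was at 455 and 269 CPM in p62KO cells, against 888 and 1039 CPM in WT cells. Relative to the WT vehicle mean, the median of the 19 tested was 2.23 in replicate 1 and 0.19 in replicate 2. It was 0.42 and 0.61 in the p62KO calcipotriol libraries and 0.64 and -0.06 in the WT calcipotriol libraries. Saa3, an acute-phase protein gene, was at 298 and 0.158 CPM in p62KO vehicle cells and at 0.204 and 0.268 CPM in WT vehicle cells, and the chemokine gene Ccl2 was at 350.0 and 25.9 CPM in p62KO vehicle cells and 8.56 and 7.63 CPM in WT vehicle cells. With calcipotriol Saa3 was at 0.189 and 0.251 CPM in p62KO cells and 30.7 and 0.544 CPM in WT cells, and Ccl2 was at 26.7 and 38.1 CPM in p62KO cells and 26.7 and 6.32 CPM in WT cells, so WT calcipotriol replicate 1 was also above its replicate 2. Summed macrophage markers were at 21.2 and 6.12 CPM in p62KO vehicle cells, 4.01 and 3.28 CPM in WT vehicle cells, 6.52 and 7.55 CPM in p62KO calcipotriol cells and 12.2 and 4.74 CPM in WT calcipotriol cells, with Emr1, Clec4f, Marco, C1qa, C1qb and C1qc at 0 in every library. The part of these differences in the members' levels was not tested.

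**Figure D2:**
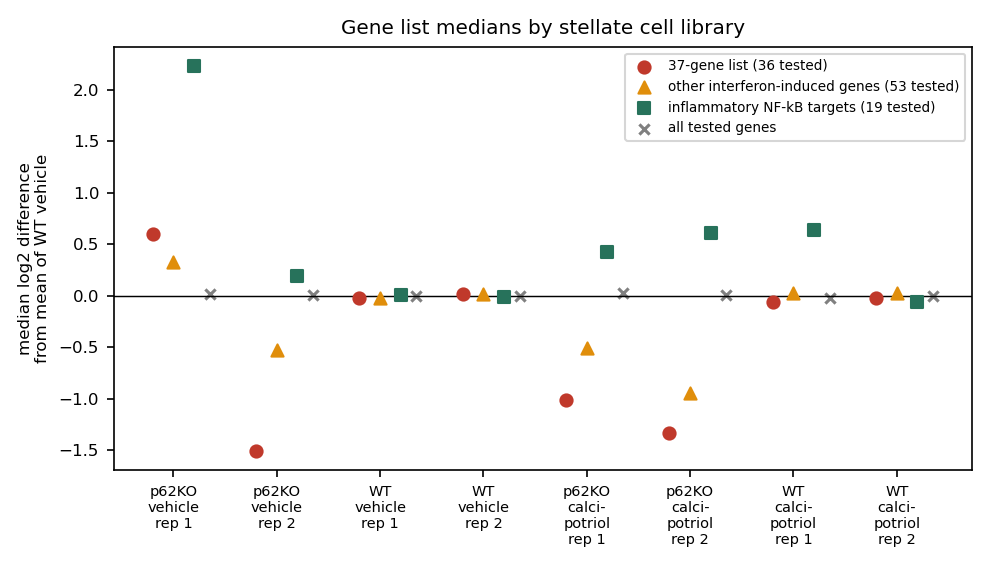
Median log2 difference from the mean of the 2 WT vehicle libraries (vertical axis) in each of 8 stellate cell libraries (horizontal axis), for the 36 tested genes of the 37-gene list, 53 other interferon-induced genes, 19 inflammatory NF-kB targets and all 12681 tested genes. In p62KO vehicle replicate 1 the list is at 0.6 and the NF-kB targets are at 2.23, while in replicate 2 the list is at -1.51 and the NF-kB targets are at 0.19.

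Among the transcription factors, none of the 4 passed a test between genotypes in stellate cells. Stat2, a subunit of the complex that binds the ISRE, was at 41.1 and 12.4 CPM in p62KO vehicle cells, against 41.4 and 44.7 CPM in WT vehicle cells. It was at 15.6 and 17.2 CPM in p62KO calcipotriol cells, against 48.3 and 41.5 CPM in WT calcipotriol cells, so the genotypes did not overlap with calcipotriol, and the difference there was -1.45 ± 0.45 (adjusted p = 0.0531). Irf9, the DNA-binding part of the same complex, split around WT with vehicle and lay below WT with calcipotriol, with 52.5 and 10.9 CPM in p62KO vehicle cells, 34 and 37 CPM in WT vehicle cells, 17.5 and 19.4 CPM in p62KO calcipotriol cells and 31.6 and 35.4 CPM in WT calcipotriol cells. Irf7, which amplifies interferon production, was at 23.6 and 3.48 CPM in p62KO vehicle cells and 10.3 and 13.7 CPM in WT vehicle cells, and at 8.56 and 11.9 CPM in p62KO calcipotriol cells and 11.5 and 14.6 CPM in WT calcipotriol cells, where the genotypes overlapped. Irf1, an interferon-gamma-induced factor, stood above both WT libraries in both p62KO libraries of each medium. It was at 24.5 and 20.1 CPM in p62KO vehicle cells, 19.1 and 15.3 CPM in WT vehicle cells, 19.5 and 25.7 CPM in p62KO calcipotriol cells and 18.6 and 18 CPM in WT calcipotriol cells, and it passed in neither medium (0.38 ± 0.231 and 0.31 ± 0.229).

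Of the 3 cytosolic RNA sensors, Ifih1, which encodes MDA5, was lower in p62KO cells in both media. With vehicle it was at 26.9 and 21 CPM in p62KO cells, against 53.7 and 52.5 CPM in WT cells (-1.15 ± 0.241, adjusted p = 0.0196). With calcipotriol it was at 30.5 and 20.5 CPM in p62KO cells, against 60.8 and 70.8 CPM in WT cells (-1.37 ± 0.24, adjusted p = 0.0089). All 4 p62KO libraries lay below all 4 WT libraries, including the p62KO vehicle library in which most members were high. The call held in 5 of 8 fits that each left out 1 library with vehicle and in 6 of 8 with calcipotriol. Ddx58, which encodes RIG-I, was at 84 and 34.3 CPM in p62KO vehicle cells, 67.9 and 66.6 CPM in WT vehicle cells, 41.8 and 31.4 CPM in p62KO calcipotriol cells and 63.5 and 68.3 CPM in WT calcipotriol cells. Dhx58, which encodes LGP2, was at 5.79 and 0.897 CPM in p62KO vehicle cells, 3.06 and 3.28 CPM in WT vehicle cells, 1.67 and 2.4 CPM in p62KO calcipotriol cells and 3.39 and 2.34 CPM in WT calcipotriol cells. Both genes split with vehicle, and neither passed.

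In the ISG15 system, Trim25, a ubiquitin ligase that acts on RIG-I, was lower in p62KO cells with vehicle. It was at 48.6 and 42.7 CPM in p62KO cells, against 73.6 and 80.6 CPM in WT cells (-0.76 ± 0.183, adjusted p = 0.0309). With calcipotriol it was at 42.6 and 45.2 CPM in p62KO cells, against 55.7 and 67.3 CPM in WT cells (-0.49 ± 0.182, adjusted p = 0.0875). The genotypes did not overlap in either medium, but the vehicle call held in only 2 of the 8 fits that each left out 1 library. Isg15 itself was at 72.8 and 12.7 CPM in p62KO vehicle cells, 36.2 and 36.6 CPM in WT vehicle cells, 27.5 and 40.2 CPM in p62KO calcipotriol cells and 32.5 and 39.3 CPM in WT calcipotriol cells, and did not pass. Usp18, which removes ISG15 from proteins and damps the type I receptor, was at 37.4 and 3.64 CPM in p62KO vehicle cells, against 13.9 and 16.5 CPM in WT vehicle cells. With calcipotriol Usp18 was at 5.64 and 6.76 CPM in p62KO cells, against 14 CPM in both WT libraries (-1.17 ± 0.78, adjusted p = 0.298).

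The 3 IFIT genes, whose products bind foreign RNA, were below WT in every p62KO library with calcipotriol, and 2 of the 3 passed. Ifit2 was at 41.9 and 20.2 CPM in p62KO calcipotriol cells, against 116 and 102 CPM in WT calcipotriol cells (-1.81 ± 0.318, adjusted p = 0.0089). With vehicle it was at 67.7 and 53.4 CPM in p62KO cells and at 103 CPM in both WT libraries, a difference of the same direction that did not pass (-0.76 ± 0.311, adjusted p = 0.142). Ifit3, whose reads can be shared with a near-identical copy, was at 4.09 and 2.79 CPM in p62KO calcipotriol cells, against 19.7 and 12.3 CPM in WT calcipotriol cells (-2.22 ± 0.593, adjusted p = 0.0347). In vehicle Ifit3 split, with 20.4 and 4.8 CPM in p62KO cells and 13.7 and 12.6 CPM in WT cells. Ifit1 was at 78 and 17.6 CPM in p62KO vehicle cells, 29.8 and 34.9 CPM in WT vehicle cells, 16 and 8.8 CPM in p62KO calcipotriol cells and 40.8 and 23.3 CPM in WT calcipotriol cells. The last difference was -1.37 ± 0.612 (adjusted p = 0.138).

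Among the 5 genes of the OAS family, which includes enzymes switched on by double-stranded RNA, only Oasl2 passed. It was at 2.88 and 2.9 CPM in p62KO calcipotriol cells, against 25.4 and 24.2 CPM in WT calcipotriol cells (-3.1 ± 0.772, adjusted p = 0.0282). In p62KO vehicle cells it was at 23.3 and 2.64 CPM, against 28 and 25.2 CPM in WT vehicle cells. Thus 3 of the 4 p62KO libraries held Oasl2 under 3 CPM and 1 held it near WT, and the vehicle difference did not pass (-1.04 ± 0.71, adjusted p = 0.366). Oas1a, a member of a cluster of close copies, was at 19.3 and 3.22 CPM in p62KO vehicle cells, 10.5 and 11.1 CPM in WT vehicle cells, 5.04 and 6.8 CPM in p62KO calcipotriol cells and 8.1 and 10.3 CPM in WT calcipotriol cells. Oas3, another of these enzymes, was at 1.15 and 0.106 CPM in p62KO vehicle cells, 0.747 and 0.536 CPM in WT vehicle cells, 0.303 and 0.358 CPM in p62KO calcipotriol cells and 0.632 and 0.762 CPM in WT calcipotriol cells. Oas2 was at 3.34 and 0.897 CPM in p62KO vehicle cells, 3.12 and 3.35 CPM in WT vehicle cells, 1.25 CPM in both p62KO calcipotriol libraries and 2.35 and 2.89 CPM in WT calcipotriol cells. Oasl1 was at 5.95 and 1.9 CPM in p62KO vehicle cells, 3.33 and 3.08 CPM in WT vehicle cells, 2.2 and 4.65 CPM in p62KO calcipotriol cells and 3.96 and 2.12 CPM in WT calcipotriol cells, and its genotypes overlapped in both media. None of these 4 passed.

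Of the other antiviral and induced genes, 11 were tested, none passed with vehicle and 2 were lower in p62KO cells with calcipotriol. Rsad2, whose product viperin makes a chain-terminating nucleotide, was at 0.833 and 0.501 CPM in p62KO calcipotriol cells, against 6.32 and 3.21 CPM in WT calcipotriol cells (-2.83 ± 0.663, adjusted p = 0.0235). Parp14, an ADP-ribosyltransferase, was at 3.52 and 2.79 CPM in p62KO calcipotriol cells, against 13.6 and 10.5 CPM in WT calcipotriol cells (-1.93 ± 0.5, adjusted p = 0.0318). In vehicle both split around WT, with Rsad2 at 5.69 and 1.58 CPM and Parp14 at 14.7 and 4.33 CPM in p62KO cells, and Rsad2 at 3.53 and 2.75 CPM and Parp14 at 11.5 and 12 CPM in WT cells. Cmpk2, a nucleotide kinase gene next to Rsad2, was at 0.796 and 1.11 CPM in p62KO calcipotriol cells and 4.08 and 2.89 CPM in WT calcipotriol cells without passing (-1.86 ± 0.632, adjusted p = 0.0693). Rtp4, induced by type I interferon, was at 3.9 and 3.26 CPM in p62KO calcipotriol cells, against 11.1 and 13.3 CPM in WT calcipotriol cells (-1.77 ± 0.642, adjusted p = 0.0821). In vehicle Cmpk2 was at 5.48 and 1.27 CPM in p62KO cells and 4.14 and 3.68 CPM in WT cells, and Rtp4 at 16.6 and 2.8 CPM in p62KO cells and 13.2 CPM in both WT libraries, so that both split around WT. Xaf1, an antagonist of the caspase inhibitor XIAP, was at 94.4 and 17.3 CPM in p62KO vehicle cells, 63 and 56.2 CPM in WT vehicle cells, 34.4 and 20.8 CPM in p62KO calcipotriol cells and 50.5 and 63.3 CPM in WT calcipotriol cells.

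The abundant surface proteins did not follow the low pattern. Ifitm3 was at 372 and 102 CPM in p62KO vehicle cells, against 171 and 163 CPM in WT vehicle cells, and at 166 and 316 CPM in p62KO calcipotriol cells, against 156 and 188 CPM in WT calcipotriol cells. Bst2 was at 124 and 38.4 CPM in p62KO vehicle cells, 85.7 and 88.4 CPM in WT vehicle cells, 77.1 and 135 CPM in p62KO calcipotriol cells and 78.2 and 99.7 CPM in WT calcipotriol cells. Both split with vehicle, and with calcipotriol their highest library was p62KO replicate 2, in which most other members were low. Ifi35 was above WT in both p62KO calcipotriol libraries, at 26.8 and 29.5 CPM against 22.3 and 25.3 CPM in WT, and did not pass (0.24 ± 0.273). Ifi44 and Zbp1 had large differences with vehicle that 1 library carried. Ifi44 was at 31.2 and 5.01 CPM in p62KO cells and 4.35 and 4.55 CPM in WT cells (2.02 ± 0.765, adjusted p = 0.117). Zbp1, a sensor of Z-form nucleic acid, was at 5.06 and 0.37 CPM in p62KO cells and 0.272 and 0.201 CPM in WT cells (3.49 ± 1.11, adjusted p = 0.0743). With calcipotriol Ifi44 was at 7.16 and 2.9 CPM in p62KO cells and 3.33 and 5.28 CPM in WT cells, and Zbp1 was at 0.606 and 0.751 CPM in p62KO cells and 0.919 and 0.762 CPM in WT cells, with no call. Mx2, a GTPase of the Mx family, was at 2.04 and 0.264 CPM in p62KO vehicle cells, 2.38 and 1.67 CPM in WT vehicle cells, 0.568 and 0.179 CPM in p62KO calcipotriol cells and 1.21 and 0.599 CPM in WT calcipotriol cells, and did not pass.

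The guanylate-binding proteins, large GTPases induced by interferon gamma that coat pathogen membranes, gave no call among 3 tested, and their reads may be shared within the family. Gbp2 was at 62.8 and 6.49 CPM in p62KO vehicle cells, against 10.5 and 11.8 CPM in WT vehicle cells (1.64 ± 0.805, adjusted p = 0.215), and without p62KO vehicle replicate 1 this difference was -0.77. With calcipotriol Gbp2 was at 7.58 and 4.22 CPM in p62KO cells, against 22.6 and 16.2 CPM in WT cells (-1.72 ± 0.812, adjusted p = 0.157). Gbp3 was at 39.6 and 5.44 CPM in p62KO vehicle cells, 14.7 and 16.6 CPM in WT vehicle cells, 9.13 and 5.51 CPM in p62KO calcipotriol cells and 15.2 and 14.5 CPM in WT calcipotriol cells. Gbp7 was at 24.2 and 6.28 CPM in p62KO vehicle cells, 13.4 and 14.5 CPM in WT vehicle cells, 6.21 and 3.54 CPM in p62KO calcipotriol cells and 11.9 and 12.5 CPM in WT calcipotriol cells. All 3 therefore split with vehicle and lay below WT in both p62KO libraries with calcipotriol.

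The immunity-related GTPases, which act on vacuoles and on autophagy, held the call with the smallest adjusted p among the members. Irgm1 was at 85.6 and 47.5 CPM in p62KO vehicle cells, against 186 and 175 CPM in WT vehicle cells (-1.44 ± 0.293, adjusted p = 0.0181). With calcipotriol it was at 55.4 and 38.5 CPM in p62KO cells, against 156 and 168 CPM in WT cells (-1.79 ± 0.295, adjusted p = 0.00732). All 4 p62KO libraries were below all 4 WT libraries, and the call held in 6 of 8 fits that left out 1 library with vehicle and in 7 of 8 with calcipotriol. Irgm1 lies at chr11:48861968-48871683 on mm10 coordinates of the reference annotation, 1.34 Mb from the start of Sqstm1, and whether this nearness has a part in the difference was not tested. Iigp1 was at 3.22 and 0.501 CPM in p62KO calcipotriol cells, against 24.4 and 18.6 CPM in WT calcipotriol cells (-3.53 ± 0.962, adjusted p = 0.0366), and at 28 and 3.75 CPM in p62KO vehicle cells, against 17.8 and 20.1 CPM in WT vehicle cells. Without p62KO calcipotriol replicate 1 its difference was -5.4 and without replicate 2 it was -2.75. The Iigp1 call held in only 3 of the 8 fits that left out 1 library. Among the other calls with calcipotriol, this number was 3 for Ifit3 and Parp14, 4 for Oasl2, 5 for Rsad2 and 6 for Ifit2. Igtp was at 4.13 and 4.08 CPM in p62KO calcipotriol cells, against 13.4 and 15.6 CPM in WT calcipotriol cells (-1.82 ± 0.627, adjusted p = 0.0714). Irgm2 was at 6.93 and 4.08 CPM in p62KO calcipotriol cells, against 16.1 and 17.7 CPM in WT calcipotriol cells (-1.62 ± 0.521, adjusted p = 0.0592). With vehicle Igtp was at 17.9 and 3.11 CPM in p62KO cells and 14.3 and 16.1 CPM in WT cells, and Irgm2 at 23.1 and 6.39 CPM in p62KO cells and 21.3 and 22.1 CPM in WT cells, so both split around WT. Igtp and Irgm2 overlap on chromosome 11, and their reads may not be told apart.

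**Figure D3:**
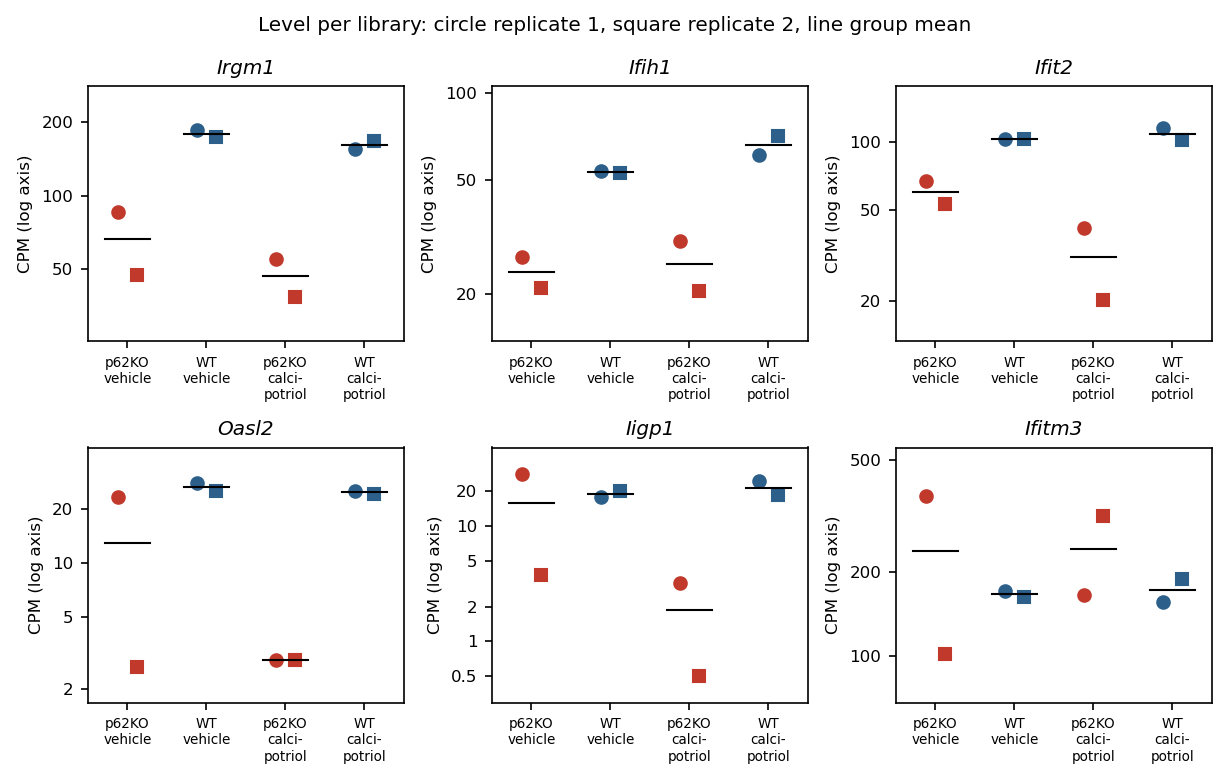
CPM on a log axis (vertical) in each of the 8 stellate cell libraries, by group (horizontal), for 5 members that passed (Irgm1, Ifih1, Ifit2, Oasl2 and Iigp1) and for Ifitm3, the most abundant; p62KO is red, WT is blue, circles are replicate 1, squares replicate 2 and lines the group means. For Irgm1, Ifih1 and Ifit2 all 4 p62KO libraries lie below all 4 WT libraries, for Oasl2 and Iigp1 p62KO vehicle replicate 1 lies near WT, and for Ifitm3 the genotypes overlap.

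Several members lie on chromosomes whose genes as a whole differed between these p62KO and WT cells. With calcipotriol the median log2 fold change of all tested genes was -0.711 on chromosome 10, which holds Stat2, and -0.49 on chromosome 14 with Irf9. It was -0.483 on chromosome 18 with Iigp1, -0.414 on chromosome 12 with Rsad2 and Cmpk2 and -0.364 on chromosome 5 with the OAS genes. Chromosome 19 with the IFIT genes was at -0.162, 16 with Parp14 at -0.124 and 2 with Ifih1 at -0.0149. Above 0 were chromosome 11 with Irgm1 (0.165), 3 with the guanylate-binding proteins (0.214) and 8 with Bst2 (0.229). So were chromosome 7 with Irf7 and Ifitm3 (0.245), 6 with Usp18 (0.296) and 4 with Ddx58 and Isg15 (0.433). With vehicle the medians ran from -0.642 on chromosome 10 to 0.428 on chromosome 3. When each gene was set against its chromosome's median, 3 of the 8 calls with calcipotriol remained, those of Irgm1, Ifih1 and Ifit2. The members' median was then -1.21, beside -1.12 without the offset, and 10.8% of all genes passed, beside 19.8%. The 3 calls with vehicle remained, where 7.73% of all genes passed.

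**Figure D4:**
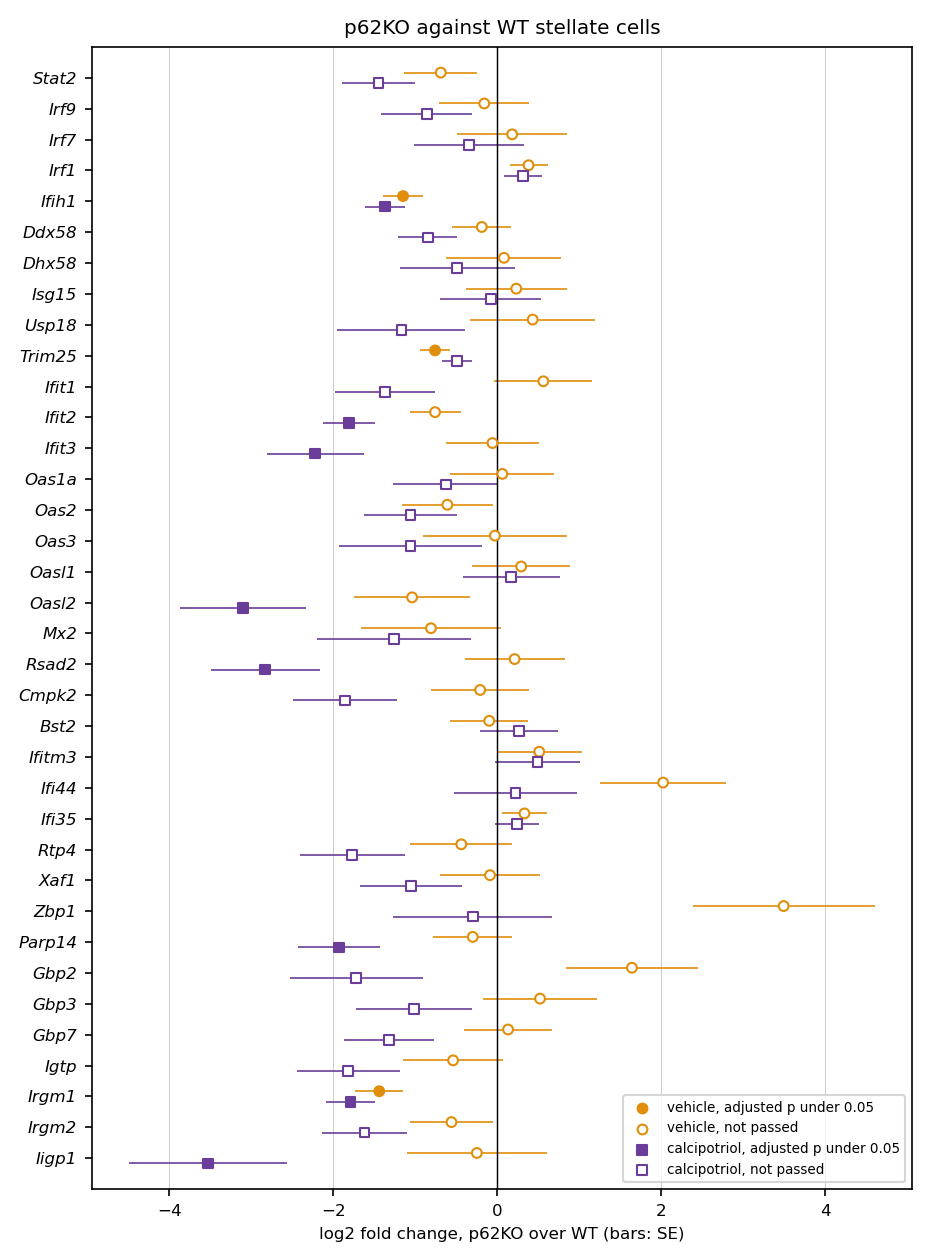
Log2 fold change of p62KO over WT stellate cells (horizontal axis, bars are SE) for the 36 members tested (down the page), with vehicle as orange circles and with calcipotriol as purple squares; filled symbols passed an adjusted p of 0.05. Irgm1 and Ifih1 are filled in both media, Trim25 with vehicle, and Ifit2, Ifit3, Oasl2, Rsad2, Parp14 and Iigp1 with calcipotriol.

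Calcipotriol itself, in WT cells, moved no member past the threshold. None of the 36 passed (smallest adjusted p = 1.0), beside 0.0% of all genes, none had an unadjusted p under 0.05, beside 2.37% of all genes, and DESeq2 called none. Both calcipotriol libraries were above both vehicle libraries for 3 members, against 25.0% of all genes, and below for 7, against 29.3%. The members' median was -0.04. DESeq2 passed 14 genes as higher and 2 as lower among all genes. The main fit shares its spread with the p62KO libraries, whose replicates differed more than those of WT. With only the 2 WT groups in the edgeR fit, no member passed (smallest adjusted p = 0.0609), while 2.88% of all genes did. In that fit 6 members had an unadjusted p under 0.05. In p62KO cells calcipotriol against vehicle also gave no call (smallest adjusted p = 0.361, beside 0.0% of all genes). At an unadjusted p under 0.05 there were 13 members, beside 13.5% of all genes. DESeq2 made 1 call, Rsad2, beside 34 higher and 21 lower among all genes. The members' median was -0.99, and it depended on which p62KO vehicle library was used. Without p62KO vehicle replicate 2, 18 members passed as lower with calcipotriol, beside 1.49% of all genes passing, and without p62KO calcipotriol replicate 1 only Ifit2 and Iigp1 did, beside 34.8%. Without p62KO vehicle replicate 1 none passed and the median was 0.37. The difference between the 2 responses, p62KO minus WT, gave no call (smallest adjusted p = 0.708, beside 0.0% of all genes), 7 members at an unadjusted p under 0.05, beside 5.32% of all genes, and none by DESeq2. It gave 1 call, Oasl2, without p62KO vehicle replicate 2, beside 0.0535% of all genes, and 1 call, Ifit2, without p62KO calcipotriol replicate 1, beside 19.2%. A difference of the calcipotriol response between genotypes was therefore not detected for any member with all 8 libraries, and the genotype calls made only with calcipotriol are not shown to differ from those with vehicle.

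In liver, 3 of the 37 members passed between p62KO and WT, Xaf1 as higher and Ifit1 and Usp18 as lower. Of all genes 7.94% passed, 4.48% as higher and 3.45% as lower. The members' median was 0.01, beside 0.0175 for all genes. Every p62KO liver was above every WT liver for 5 members, against 18.4% of all genes, and below for 5, against 19.2%. The count was 9 without p62KO liver replicate 3, beside 27.8% of all genes, and 1 without p62KO liver replicate 1, beside 0.85%. It was 0 without p62KO liver replicate 2, beside 0.0693% of all genes, and 0 without any 1 of the 3 WT livers, beside 0.0227% to 0.167%. With the replicate number as a block, the calls of Ifit1 and Usp18 were lost and Oas1a passed as higher beside Xaf1. In that fit 4.96% of all genes passed. Compared with stellate cells, 2 of 36 members lay on opposite sides of WT in every library with vehicle, against 15.7% of all genes, and 6 with calcipotriol, against 13.9%.

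Xaf1 was at 23.1, 29.7 and 17.6 CPM in p62KO livers, against 7.39, 6.06 and 6.3 CPM in WT livers (1.83 ± 0.208, adjusted p = 0.0218). Every p62KO liver was above the highest WT liver. Xaf1 lies on chromosome 11, 22.1 Mb from Sqstm1, and its call held in 2 of the 6 fits that left out 1 library, although the log2 fold change stayed between 1.62 and 1.99. Ifit1 was at 13.7, 17.2 and 11.5 CPM in p62KO livers, against 29.7, 22.7 and 29 CPM in WT livers (-0.94 ± 0.178, adjusted p = 0.0369). Usp18 was at 18.9, 20.7 and 18.1 CPM in p62KO livers, against 27.5, 25.3 and 32.4 CPM in WT livers (-0.56 ± 0.126, adjusted p = 0.044). The groups did not overlap for either, and each call held in 1 of the 6 fits.

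The IFIT family was divided in liver. Ifit2 was at 10.9, 17.7 and 11 CPM in p62KO livers, against 9.22, 6.34 and 8.36 CPM in WT livers, above WT in every animal but not past the threshold (0.73 ± 0.24, adjusted p = 0.0905). Ifit3 was at 15.8, 24.5 and 15.6 CPM in p62KO livers and 26.5, 21.1 and 27.1 CPM in WT livers (-0.42 ± 0.203, adjusted p = 0.198). The OAS genes gave no call, and 4 of the 5 had a fold change above 0. Oas3 was at 3.56, 7.32 and 4.09 CPM in p62KO livers, against 2.78, 2.32 and 1.62 CPM in WT livers (1.15 ± 0.35, adjusted p = 0.0755). Oas1a was at 9.94, 11.8 and 5.54 CPM in p62KO livers, against 4.56, 4.81 and 3.51 CPM in WT livers (1.09 ± 0.296, adjusted p = 0.0611). Oasl2 was at 10.9, 16.8 and 9.11 CPM in p62KO livers, against 7.49, 7.93 and 8.36 CPM in WT livers (0.63 ± 0.233, adjusted p = 0.114). The p62KO and WT livers did not overlap for these 3, and Oasl1 stood on the other side of 0, at 7.8, 11 and 9.69 CPM in p62KO livers and 11.9, 10.1 and 11.3 CPM in WT livers (-0.23 ± 0.164).

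The remaining liver members did not pass. On the log2 scale the transcription factors differed by -0.28 to 0.1, the RNA sensors by 0.05 to 0.34, the guanylate-binding proteins by -0.18 to 0.26, and the immunity-related GTPases by -0.45 to 0.17. Iigp1 was at 537, 379 and 382 CPM in p62KO livers and 424, 312 and 420 CPM in WT livers. Irgm1, which was lower in p62KO stellate cells, was at 58.5, 49.5 and 51 CPM in p62KO livers and 80.4, 57.7 and 78.5 CPM in WT livers (-0.45 ± 0.153, adjusted p = 0.098). Ifih1 was at 52.7, 48.8 and 42.6 CPM in p62KO livers and 45.5, 44.6 and 45.3 CPM in WT livers. Rsad2 was at 12.8, 16.2 and 15.8 CPM in p62KO livers, all under the WT values of 26.9, 16.8 and 25.5 CPM (-0.63 ± 0.197, adjusted p = 0.08). Mx2 was at 3.31, 3.9 and 3.17 CPM in p62KO livers, against 4.71, 5.89 and 5.07 CPM in WT livers (-0.59 ± 0.195, adjusted p = 0.091).

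Most of the abundant liver members overlapped between genotypes. Stat2 was at 48.5, 54.3 and 45 CPM in p62KO livers and 49.8, 45.5 and 55.2 CPM in WT livers. Irf7 was at 43, 59.8 and 51.7 CPM in p62KO livers and 42.4, 55.3 and 46 CPM in WT livers. Irf9 was at 28.1, 30.7 and 21.6 CPM in p62KO livers and 33.6, 29.4 and 34.8 CPM in WT livers. Replicate 2 was the highest of the p62KO livers for these 3 genes, and for each the genotypes overlapped. Irf1 was at 38.9, 26.9 and 24.5 CPM in p62KO livers and 26, 30.4 and 33 CPM in WT livers. Ddx58 was at 28.3, 27.8 and 17.9 CPM in p62KO livers and 21.8, 18.3 and 18.4 CPM in WT livers. Dhx58 was at 12.5, 18 and 9.86 CPM in p62KO livers and 13.8, 13.4 and 11.9 CPM in WT livers. The 3 genes overlapped between genotypes. Trim25 was at 97.1, 125 and 112 CPM in p62KO livers and 98.1, 78.7 and 126 CPM in WT livers. Isg15 was at 20.1, 22.9 and 14.5 CPM in p62KO livers and 27.4, 21.7 and 23.3 CPM in WT livers. Neither member of the ISG15 system followed Usp18 past the threshold.

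The surface proteins, guanylate-binding proteins and other GTPases likewise gave no call in liver. Ifitm3 was at 320.0, 308 and 299 CPM in p62KO livers and 294, 331 and 297 CPM in WT livers. Bst2 was at 156, 199 and 211 CPM in p62KO livers and 214, 195 and 214 CPM in WT livers. Parp14 was at 45.5, 42.1 and 31.3 CPM in p62KO livers and 33.5, 31.9 and 32.7 CPM in WT livers. These 3 overlapped between genotypes. Gbp2 was at 34.2, 16.5 and 20.3 CPM in p62KO livers and 16, 20 and 23.2 CPM in WT livers. Gbp3 was at 22, 16.1 and 16.5 CPM in p62KO livers and 16.7, 19.7 and 25.4 CPM in WT livers. Gbp7 was at 46.2, 25.8 and 21.6 CPM in p62KO livers and 32.9, 26.2 and 37.3 CPM in WT livers. For all 3 guanylate-binding proteins p62KO replicate 1, the liver with the highest T and NK cell marker sum (35.4 CPM), was the highest p62KO liver, and the part of those cells was not tested. Igtp was at 69.1, 41 and 38.4 CPM in p62KO livers and 63.2, 32.1 and 74.2 CPM in WT livers. Irgm2 was at 49.5, 42.4 and 30.4 CPM in p62KO livers and 56.7, 38.2 and 66.3 CPM in WT livers. The low-level Mx1 was at 1.46, 3.51 and 1.33 CPM in p62KO livers and 3.04, 1.08 and 1.56 CPM in WT livers. Ifi35 was at 25.7, 23.7 and 19.3 CPM in p62KO livers, all under the WT values of 30.5, 29.5 and 27.2 CPM, without passing. Oas2, Cmpk2, Ifi44, Rtp4 and Zbp1 were between 4.07 and 18.8 CPM in every liver, and none passed.

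**Figure D5:**
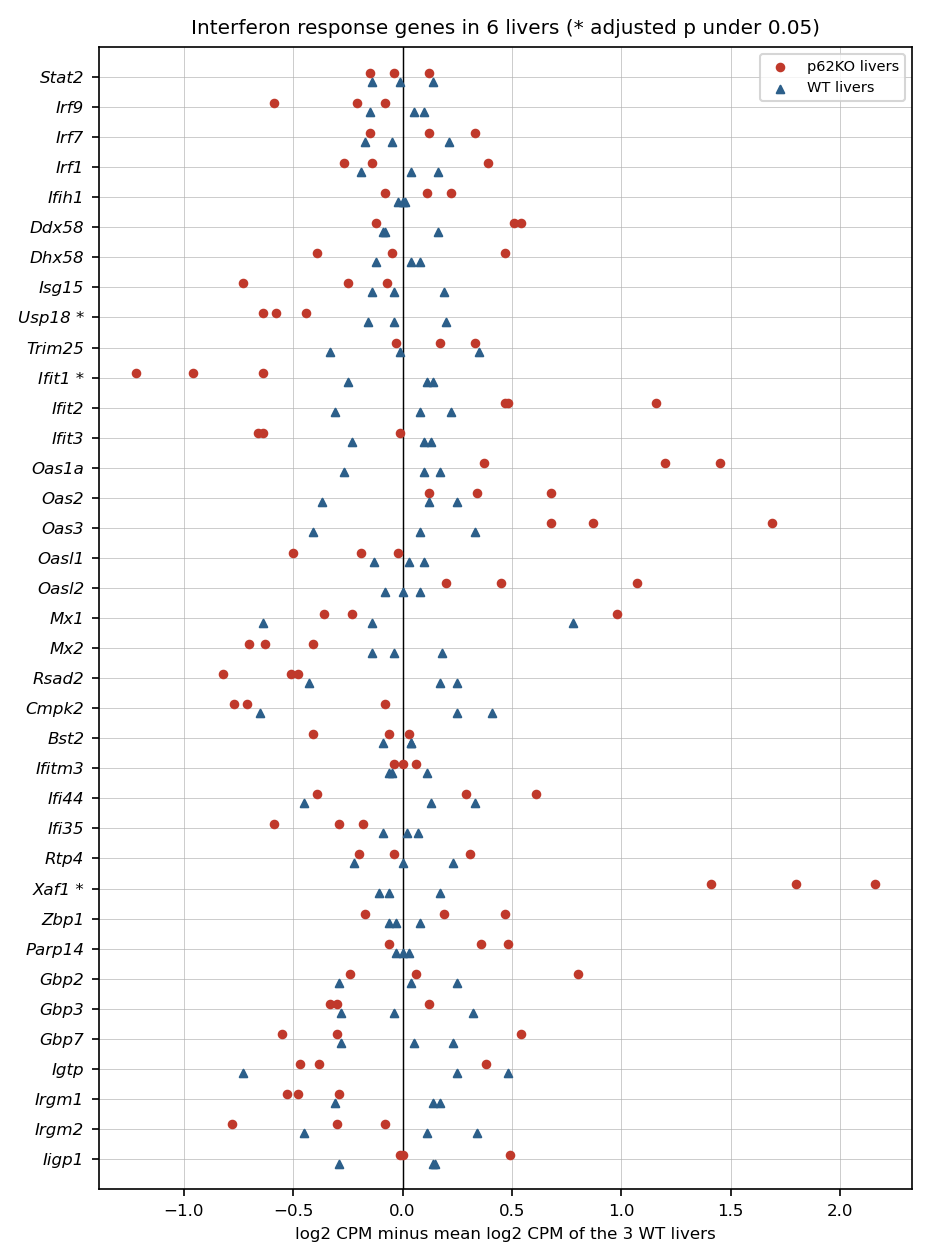
Log2 CPM minus the mean log2 CPM of the 3 WT livers (horizontal axis) for the 37 members (down the page, by role), with p62KO livers as red circles and WT livers as blue triangles; a star marks an adjusted p under 0.05. Xaf1 lies to the right of all WT livers and Ifit1 and Usp18 to the left, and for most other members the groups overlap.

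Some markers of several cell types passed as higher in p62KO livers. Of 8 hepatocyte markers, 2 passed as lower and 0 as higher, with a median log2 fold change of -0.49. Their sums overlapped, at 127490, 102816 and 78293 CPM in p62KO livers and 92552, 89132 and 119667 CPM in WT livers. Summed macrophage markers were at 1204, 1114 and 1327 CPM in p62KO livers, against 442, 1341 and 555 CPM in WT livers, and 4 of the 13 tested passed as higher. General leukocyte markers summed to 179, 154 and 138 CPM in p62KO livers, against 83, 126 and 67.8 CPM in WT livers, and 2 of 5 passed as higher. Stellate cell and fibroblast markers summed to 559, 980 and 423 CPM in p62KO livers, against 210.0, 207 and 199 CPM in WT livers, and 5 of 10 passed as higher. Cholangiocyte markers summed to 525, 501 and 162 CPM in p62KO livers, against 103, 107 and 57.7 CPM in WT livers, and 2 of 6 passed as higher. Most of each sum was Spp1, at 477, 478 and 144 CPM in p62KO livers and 93, 91.9 and 47.6 CPM in WT livers. Spp1 does not mark cholangiocytes alone here, as WT vehicle stellate cells held it at 963 and 958 CPM. The macrophage sums overlapped between genotypes, and the leukocyte, stellate cell and cholangiocyte sums did not. T and NK cell markers summed to 35.4, 8.9 and 9.86 CPM in p62KO livers and 10.7, 8.77 and 10.5 CPM in WT livers, and none of 8 passed. No defining marker of these lists was used to choose the members, and the part of these cells in the members' levels was not tested.

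The rest of the pathway was read from fixed lists of genes outside the 37. Of 21 interferon genes, 17 were in the tables, and each was under 1 CPM in every library, so none was tested. Among 5 receptor genes tested, 1 passed in each genotype comparison, and it was Ifngr1, the ligand-binding chain of the interferon-gamma receptor. It was higher in p62KO livers, at 90.2, 62.6 and 44.6 CPM against 34, 31.1 and 27.3 CPM in WT livers (1.1 ± 0.245, adjusted p = 0.0439). In stellate cells it was lower, at 85.2 and 86.9 CPM in p62KO vehicle cells against 131 and 125 CPM in WT vehicle cells (-0.58 ± 0.16, adjusted p = 0.0493), and at 80.2 and 79.7 CPM in p62KO calcipotriol cells against 118 and 130.0 CPM in WT calcipotriol cells (-0.63 ± 0.16, adjusted p = 0.0295). None of 6 tested negative regulators passed in liver or in either medium.

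Of the other JAK, STAT and IRF genes, 11 were tested in liver and 9 in stellate cells. Irf5, an inflammatory factor of myeloid cells, was higher in p62KO livers (1.0 ± 0.211, adjusted p = 0.0411), none passed with vehicle, and Jak2, the kinase of the interferon-gamma receptor, was lower in p62KO cells with calcipotriol (-1.22 ± 0.267, adjusted p = 0.0189). Of the sensing and adaptor genes, 4 of 17 were higher and none lower in p62KO livers, 1 of 15 was lower in p62KO vehicle cells, and 5 of 15 were lower in p62KO calcipotriol cells. Tbk1, the kinase that activates IRF3, was at 56.9 and 53.6 CPM in p62KO vehicle cells, against 116 and 128 CPM in WT vehicle cells (-1.14 ± 0.179, adjusted p = 0.00699). With calcipotriol Tbk1 was at 49.5 and 40.1 CPM in p62KO cells, against 111 and 118 CPM in WT cells (-1.35 ± 0.18, adjusted p = 0.00329). Like Irgm1 and Ifih1, it was below WT in all 4 p62KO libraries. The double-stranded RNA receptor gene Tlr3 was lower in p62KO calcipotriol cells (-2.27 ± 0.563, adjusted p = 0.0279).

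Among 67 other interferon-induced genes, 64 were tested in liver and 53 in stellate cells. In liver 3 were higher and 3 lower in p62KO, with a median of 0.32. Those with the smallest p were the apolipoprotein L genes Apol9b (-1.53 ± 0.175, adjusted p = 0.0218) and Apol9a (-1.22 ± 0.164, adjusted p = 0.0266), which are close copies, and Ciita, the activator of MHC class II genes (1.46 ± 0.284, adjusted p = 0.038). With vehicle 2 were higher and 5 lower in p62KO cells, with a median of -0.15, and with calcipotriol 2 were higher and 12 lower, with a median of -0.56. Gbp9, another guanylate-binding protein gene, was at 1.41 and 0.211 CPM in p62KO vehicle cells, against 5.03 and 5.16 CPM in WT vehicle cells (-2.64 ± 0.712, adjusted p = 0.0444). With calcipotriol Gbp9 was at 0.189 and 0.0358 CPM in p62KO cells, against 5.69 and 5.28 CPM in WT cells (-5.55 ± 0.87, adjusted p = 0.00598). Cxcl10, a chemokine induced by both interferon and NF-kB, went the other way with vehicle, at 63 and 10.6 CPM in p62KO cells against 5.43 and 6.09 CPM in WT cells (2.67 ± 0.73, adjusted p = 0.0465). Ifi27l2a was higher in p62KO cells in both media, at 15.5 and 12.4 CPM against 5.43 and 5.76 CPM in WT with vehicle (1.32 ± 0.292, adjusted p = 0.0235) and at 24.2 and 32.1 CPM against 5.23 and 8.28 CPM in WT with calcipotriol (2.06 ± 0.291, adjusted p = 0.00412).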

How the data were processed

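The authors deposited whole-number counts per gene symbol, 1 table for 6 livers and 1 for 8 stellate cell libraries. Per the labels' protocols, poly(A) RNA was made into directional libraries and read single-end for 75 bases. The submitters' processing notes name the build mm10. Aligner, counter, strand setting and annotation are not given in the sources used here. Although the stellate cell table is titled as a normalized unit, it holds whole numbers with unequal sums, so it was read as counts. A spreadsheet had turned 27 symbols into dates.

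Counts were scaled with TMM, filtered with filterByExpr and tested two-sided with edgeR 4.0.16 (glmQLFit and glmQLFTest) in R 4.3.3, in 1 fit per table, with Benjamini-Hochberg adjustment over all genes. DESeq2 1.42.0 and the other alternatives are described at the end. The SE is the log2 fold change divided by the square root of F. The fits recovered changes put into simulated data. Those data had the same spread in every library and changes only in well-counted genes. They check the code and do not measure the power to detect changes in these libraries. Replicates of a group differed by more than sampling noise, but to unequal degrees. Chi-squared per degree of freedom, near 1 for sampling noise alone, was 1.66 in WT vehicle cells and 11.7 in WT calcipotriol cells. It was 58 in p62KO vehicle cells, 190 in p62KO calcipotriol cells and 25.1 to 195 between livers of a group. The 4 cell groups nevertheless shared 1 estimate of the spread per gene. Exon lengths and positions came from GENCODE on GRCm38 and promoter windows from RefSeq.

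All members were accounted for. A member got its value in every library of a table if it passed there, was among the most abundant 3 of its role, or had 1 of the 2 largest changes of its role. Passing genes of other lists could be named, at most 3 per comparison with the smallest p. Other names (Cxcl10, Saa3, Ccl2, Csf1, Ptgs2, Spp1 and, with vehicle, Gbp9) were chosen after their values were seen. Some results are not reported here. The members and lists were chosen with earlier results of these data known.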

Additional observations from a re-analysis of the deposited data

Results flagged for a closer look

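For 6 of 36 members, all p62KO libraries lay on one side of WT in liver and the other side in calcipotriol-treated stellate cells. This is near the share of all genes, 13.9%. For 2 of them, Ifit2 and Oasl2, it also held with vehicle, below the 15.7% of all genes. The counts therefore do not set the members apart from other genes. The difference between the tissues was not tested, and the tables were scaled separately. Given as the liver log2 fold change minus the stellate cell one, Ifit2 differed by 1.49 with vehicle and 2.54 with calcipotriol, and Oasl2 by 1.67 with vehicle and 3.73 with calcipotriol. With calcipotriol the gap was 1.72 for Oas1a, 2.21 for Oas3 and 2.88 for Xaf1, all higher in p62KO livers and lower in p62KO cells. Ifi35 stood the other way, at -0.58. Of these 6, Xaf1 passed in liver and Ifit2 and Oasl2 in calcipotriol-treated cells.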

How the results depend on the processing

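With 2 libraries per cell group, the counts of members called depended on single libraries. Leaving out each library in turn, they ranged from 0 to 9 in liver, 0 to 14 with vehicle, 0 to 22 with calcipotriol, 0 to 18 for calcipotriol in p62KO cells, 0 to 0 in WT cells and 0 to 1 for the difference of responses. The members' median log2 fold change ranged from -0.09 to 0.12 in liver, -1.52 to 0.6 with vehicle, -1.41 to -1.01 with calcipotriol, -1.76 to 0.37 for calcipotriol in p62KO cells, -0.03 to 0.01 in WT cells and -1.59 to 0.34 for the difference of responses. DESeq2 called 6 in liver, beside 1329 higher and 1015 lower among all genes, and 5 with vehicle, beside 1174 and 1040. It called 14 with calcipotriol, beside 1655 and 1588, and 1 for calcipotriol in p62KO cells, beside 34 and 21. With no filter the counts were 5 with vehicle and 13 with calcipotriol, beside 1880 and 2847 of all genes tested. With only the 2 groups compared they were 4 with vehicle, beside 19.6% of all genes, and 15 with calcipotriol, beside 10.2%. For calcipotriol against vehicle such fits gave 0 in WT cells, beside 2.88%, and 0 in p62KO cells, beside 0.0%. Offsetting by chromosome median left 3 with calcipotriol, with a members' median of -1.21 and 10.8% of all genes passing. The next fit left out p62KO vehicle replicate 1, the p62KO library in which most members were high (median 0.6). It kept 1 library per p62KO group, with medians of -1.51 with vehicle and -1.01 with calcipotriol. Low p62KO levels with vehicle follow in part from that choice, so its counts are a description and not a test. With p62KO vehicle replicate 1 left out together with p62KO calcipotriol replicate 2, 28 passed with vehicle, beside 42.7% of all genes, and 24 with calcipotriol, beside 43.8%, each lone library being assumed to vary like the other groups. The vehicle change of Gbp2 reversed to -0.77 in that fit, where it passed as lower, and without p62KO vehicle replicate 1 alone, where it did not pass, and it was 2.49 without replicate 2, where it passed as higher. The cause was not tested. Same-numbered samples did not consistently deviate together (r from -0.191 to 0.192 in liver and -0.148 to 0.433 in cells, the highest between WT calcipotriol and p62KO vehicle), so the numbers were not taken to pair them. With the replicate block the count was 2 in liver (Xaf1 and Oas1a, both higher), beside 4.96% of all genes. It was 3 with vehicle, beside 10.9%, 9 with calcipotriol, beside 18.3%, and 0 in the other comparisons, beside 0.0%. Exchanging the p62KO calcipotriol numbers, added after seeing the data, also gave 0 for calcipotriol in p62KO cells.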
